A study of Homo sapiens with 4 samples.

Results

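The MAP kinase phosphatases are the dual-specificity phosphatases that remove phosphate from both the threonine and the tyrosine of the activation loop of ERK, JNK and p38 kinases. Their members were taken as rows of the 10 genes DUSP1, DUSP2, DUSP4, DUSP5, DUSP6, DUSP7, DUSP8, DUSP9, DUSP10 and DUSP16, by symbol, out of 20286 genes in each count table. All 10 were found and all 10 passed the filter on low counts, as did 12698 genes in all. RNA was sequenced from HLE, an established cell line of human hepatocellular carcinoma, grown in medium with fetal bovine serum. There were 2 libraries of cells stably expressing CYR61 (symbol CCN1), a secreted matrix-associated CCN protein, and 2 of cells stably carrying the empty vector. The series' design text calls the pair in each group independent cultures of the whole stable population. The labels do not say how often each population was made, and p-values measure only the spread between cultures of 1 population each.

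The phosphatases act as feedback brakes: several are themselves transcribed when the kinases they switch off are active. By place and substrate they fall into an inducible nuclear class (DUSP1, DUSP2, DUSP4, DUSP5), a cytoplasmic class that prefers ERK (DUSP6, DUSP7, DUSP9) and a class that prefers JNK and p38 (DUSP8, DUSP10, DUSP16). In hepatocellular carcinoma the ERK pathway is commonly active, and transcripts of the inducible members are often read as a sign of its output.

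Promoter sequences of 8 of the 10 members were in the RefSeq table on GRCh38.p14, each 250 bases before to 50 bases after the transcript start; DUSP4 and DUSP5 had no entry. Shown here are a promoter of each class: DUSP1 and DUSP6, whose transcripts fell, and DUSP8, whose transcript was not called. Capitals mark the cAMP response element TGACGTCA, bound by factors of the CREB and ATF families, searched on both strands.
DUSP1, chr5:172771146-172771445, minus strand: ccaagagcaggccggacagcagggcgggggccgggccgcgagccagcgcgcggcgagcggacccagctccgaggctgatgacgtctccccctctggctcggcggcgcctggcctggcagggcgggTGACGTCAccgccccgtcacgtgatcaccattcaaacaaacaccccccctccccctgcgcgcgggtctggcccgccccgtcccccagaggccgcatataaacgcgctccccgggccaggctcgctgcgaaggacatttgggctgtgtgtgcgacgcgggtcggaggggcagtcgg
DUSP6, chr12:89352452-89352751, minus strand: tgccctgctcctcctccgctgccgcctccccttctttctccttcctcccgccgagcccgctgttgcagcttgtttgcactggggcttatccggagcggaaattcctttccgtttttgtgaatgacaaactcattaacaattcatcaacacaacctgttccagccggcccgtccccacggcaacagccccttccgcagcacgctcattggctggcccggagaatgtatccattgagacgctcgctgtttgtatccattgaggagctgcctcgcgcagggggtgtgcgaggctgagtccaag
DUSP8, chr11:1572222-1572521, minus strand: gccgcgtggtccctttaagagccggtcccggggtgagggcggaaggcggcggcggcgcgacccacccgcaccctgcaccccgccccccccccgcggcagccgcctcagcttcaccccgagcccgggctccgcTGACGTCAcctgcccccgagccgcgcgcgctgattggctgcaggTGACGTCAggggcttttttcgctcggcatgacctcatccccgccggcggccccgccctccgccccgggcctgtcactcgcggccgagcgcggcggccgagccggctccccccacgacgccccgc
DUSP1 held 1 match, 125 bases before the start, and DUSP8 held 2, at 118 and 74 bases before it. The other members in the table held 0 in these windows. The element was 1 of 7 motifs searched on both strands and was chosen for display after the matches were seen. AP-1 (TGANTCA, in 7.71% of all promoters), ETS (CCGGAAG, 10.3%) and CArG box (1.29%) had 0 matches in the members. CACGTG (7.26%) lay in DUSP1 and DUSP2, TATAAA (11.5%) in DUSP1, and GGGCGG (45%) in each of the 8 but DUSP6. Of 35116 promoters in the table, 1.85% held at least 1 match and 0.0598% held 2 or more. Of the 2 genes with the cAMP response element, DUSP1 was called lower. DUSP8 was not called, with a log2 fold change of -0.37 (95% interval -0.79 to 0.06). The part of the element in these levels was not tested.

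AU-rich elements in the 3′ UTR shorten the life of many early response mRNAs, and the nonamer TTATTTATT was searched in 1 GENCODE 29 transcript per gene. DUSP1 held 2, DUSP4 and DUSP8 held 1 each and the other 7 members held 0. Over 18688 transcripts with a 3′ UTR, 7.66% held at least 1. Capitals mark the nonamer in the sites of DUSP1 (chromosome 5) and DUSP8 (chromosome 11).
DUSP1, base 101 of the 3′ UTR: gggctggtccTTATTTATTtaacttcacc
DUSP1, base 369 of the 3′ UTR: agaatataccTTATTTATTtttgtgtagg
DUSP8, base 126 of the 3′ UTR: tttcgattttTTATTTATTtaagctgttc
Of the genes with the nonamer, DUSP1 and DUSP4 were called lower and DUSP8 was not called. The part of the nonamer in these levels was not tested.

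The libraries held 21388465 and 16186988 estimated counts for CYR61 and 19118548 and 21588822 for Vector. CYR61 itself was at 8091 and 8620 CPM (counts scaled to the library size after TMM normalisation) in the CYR61 libraries, against 221 and 218 CPM in the Vector libraries, so the libraries matched their labels. Across genes, part of the spread within each group followed the GC content of the transcript: Spearman's rho across 10364 genes (not independent replicates) was 0.79 for CYR61 2 minus CYR61 1 and -0.75 for Vector 2 minus Vector 1, against -0.17 for the difference between groups. Of 10 hepatocyte markers, 8 averaged under 1 CPM, and ALB, APOB and TTR had 0 counts in all 4 libraries. Of 9 epithelial and mesenchymal genes 0 were called, and 3 were higher at an unadjusted p under 0.05 (0 by DESeq2 or limma-voom). With the GC trend removed, 3 of the 9 were called higher, also with the replicate number as a block. In the fit without the block, 18.4% of all genes were called higher and 12.4% lower. The keratin gene KRT8 averaged 3055 ± 266 CPM in CYR61 and 2388 ± 291 CPM in Vector libraries and the vimentin gene VIM 1633 ± 194 CPM in CYR61 and 1832 ± 178 CPM in Vector libraries (SD, n = 2 each), while KRT19 and EPCAM averaged under 1 CPM. The cadherin gene CDH1 averaged 2.18 ± 0.602 CPM in CYR61 and 1.05 ± 0.014 CPM in Vector libraries (SD, n = 2 each); it was called higher with the GC trend removed (edgeR adjusted p = 0.0307) and without CYR61 2 (edgeR adjusted p = 0.0403). The part of these markers in the results was not tested. Markers of leukocytes and endothelium were under 1 CPM for 5 of 6 and 4 of 5 genes, with PTPRC at 0 counts in both CYR61 libraries and KDR at 0 in all 4. The summed leukocyte list, nearly all of it the lysosomal gene CD68, was 49.1 to 53.9 CPM in CYR61 and 63.4 to 68.2 CPM in Vector libraries. CD68 was called lower with the GC trend removed (log2 fold change -0.27, edgeR adjusted p = 0.0156). CD68 is uncertain, since another gene model, AC016876.2, shares 1789 exon bases on its strand. The summed endothelial list was 2.47 to 2.63 CPM in CYR61 and 1.95 to 2.55 CPM in Vector libraries.

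Expression of CYR61 went with lower transcript levels of 4 of the 10 phosphatases, DUSP1, DUSP4, DUSP5 and DUSP6, with fitted differences of 2.17-fold for DUSP1 to 2.77-fold for DUSP6. The other 6, among them both remaining ERK-selective cytoplasmic members and all members that prefer JNK and p38, were not called. With a threshold of 0.05 on the Benjamini-Hochberg adjusted p of edgeR's quasi-likelihood test, 0 members were higher; at an unadjusted p under 0.05, 0 were higher and 5 lower, and DESeq2 and limma-voom each called 0 higher and the same number, 4, lower. Over all 12698 genes tested, 4.56% were called lower and 1.83% higher, and the median log2 fold change was -0.01. In bulk RNA, fewer cells that express a gene and less of its RNA per cell cannot be told apart.

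**Figure D1:**
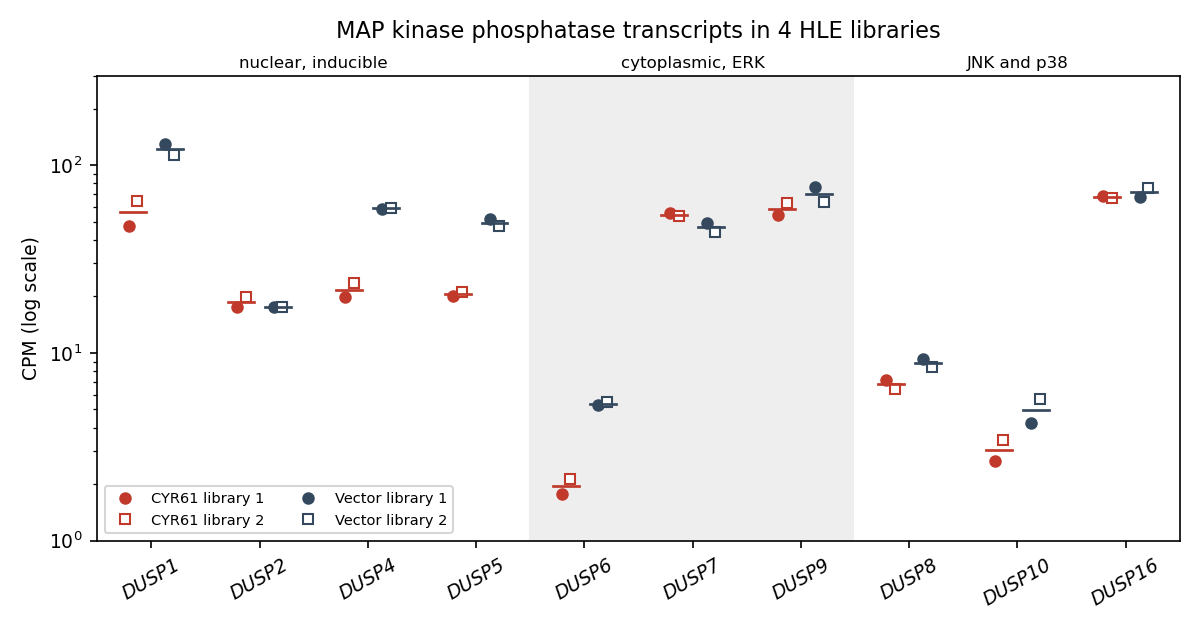
CPM (log scale) of each phosphatase transcript in the 2 CYR61 libraries (red, left of each pair) and the 2 Vector libraries (dark, right); circles are library 1, squares library 2 and lines the group mean. DUSP1, DUSP4, DUSP5 and DUSP6 lie well below their Vector values, while DUSP2 and DUSP16 lie at nearly the same height in both groups.

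In the nuclear class, DUSP1 (MKP-1), which acts on p38, JNK and ERK, was the most abundant. The gene (ENSG00000120129) spans 172768090 to 172771195 of chromosome 5 on hg38, minus strand. It was at 47.6 and 64.5 CPM in the CYR61 libraries, against 129 and 114 CPM in the Vector libraries. The groups did not overlap, although CYR61 2 stood above CYR61 1 by 0.44 on the log2 scale, the widest gap between same-group libraries among the 10 members. The log2 fold change was -1.12 (SE 0.16, 95% interval -1.47 to -0.77, edgeR adjusted p = 0.00268), or 2.17-fold lower.

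DUSP4 (MKP-2), an ERK- and JNK-directed phosphatase of the nucleus, had the smallest p of the 10. The gene (ENSG00000120875) lies on chromosome 8. It was at 19.8 and 23.7 CPM in the CYR61 libraries, against 58.4 and 59.6 CPM in the Vector libraries. Both CYR61 values were far below the nearly equal Vector values. It fell by 1.44 on the log2 scale (SE 0.14, 95% interval -1.77 to -1.12, edgeR adjusted p = 0.000436), a 2.72-fold difference, and ranked 38 by p among all tested genes.

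DUSP5 (ENSG00000138166; chromosome 10, 110497838 to 110511544, plus strand), a nuclear phosphatase selective for ERK, was at 20.0 and 21.1 CPM in the CYR61 libraries, against 51.5 and 47.6 CPM in the Vector libraries. The libraries of each group lay close together and the groups were well apart. It fell by 1.27 on the log2 scale (SE 0.14, 95% interval -1.58 to -0.96, edgeR adjusted p = 0.000827), a 2.42-fold difference. DUSP2, the remaining nuclear member, known from activated lymphocytes, was at 17.6 and 19.9 CPM in the CYR61 libraries, against 17.5 and 17.6 CPM in the Vector libraries. CYR61 1 and Vector 2 differed only beyond the digits given. Its log2 fold change of 0.09 had a 95% interval of -0.26 to 0.44 (edgeR adjusted p = 0.781), an interval that lies above the whole interval of DUSP1, DUSP4 or DUSP5. The difference between members was itself not tested.

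In the cytoplasmic class, DUSP6 (MKP-3), the best known feedback inhibitor of ERK, had the lowest mean CPM of all members in CYR61 libraries. In Vector libraries DUSP10 had the lower mean, at 4.98 CPM against 5.37 CPM for DUSP6. The DUSP6 gene (ENSG00000139318) spans 89347232 to 89353271 of chromosome 12, minus strand. It was at 1.77 and 2.13 CPM in the CYR61 libraries, against 5.25 and 5.48 CPM in the Vector libraries, resting on 38 and 34 estimated counts in CYR61 and 99 and 121 in Vector libraries. Even at this depth the groups did not overlap. The log2 fold change was -1.47 (SE 0.25, 95% interval -2.03 to -0.91, edgeR adjusted p = 0.00823), with the widest SE among the 4 members that fell. An antisense gene, AC024909.2, shares 1875 exon bases with DUSP6 in GENCODE 29, and without stated strandedness the reads of the 2 cannot be told apart.

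DUSP7 (MKP-X), a close relative of DUSP6, was at 55.4 and 53.6 CPM in the CYR61 libraries, against 49.1 and 44.2 CPM in the Vector libraries. Both CYR61 libraries were the higher ones, but the log2 fold change of 0.23 was not called (95% interval -0.06 to 0.51, edgeR adjusted p = 0.327). DUSP9 (MKP-4), the X-linked member of the class, was at 54.3 and 62.6 CPM in the CYR61 libraries, against 76.7 and 63.7 CPM in the Vector libraries. CYR61 2 and Vector 2 nearly met, and the log2 fold change of -0.26 was not called (95% interval -0.58 to 0.05, edgeR adjusted p = 0.296).

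In the class that prefers JNK and p38, DUSP16 (MKP-7) was by far the most abundant. It was at 68.7 and 66.7 CPM in the CYR61 libraries, against 68.0 and 76.0 CPM in the Vector libraries. Its groups overlapped, and its log2 fold change of -0.09 had a 95% interval of -0.36 to 0.19 (edgeR adjusted p = 0.719). DUSP8 was at 7.21 and 6.45 CPM in the CYR61 libraries, against 9.29 and 8.38 CPM in the Vector libraries, with a log2 fold change of -0.37 (95% interval -0.79 to 0.06, edgeR adjusted p = 0.284).

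DUSP10 (MKP-5), which inactivates p38 and JNK, stood nearest to the threshold of those not called. It was at 2.65 and 3.45 CPM in the CYR61 libraries, against 4.25 and 5.71 CPM in the Vector libraries, on 57 and 55 estimated counts in CYR61 and 80 and 126 in Vector libraries. The groups did not overlap, but same-group libraries differed by 0.38 in CYR61 and 0.43 in Vector on the log2 scale. The log2 fold change was -0.72 (SE 0.26, 95% interval -1.31 to -0.14, edgeR adjusted p = 0.132).

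**Figure D2:**
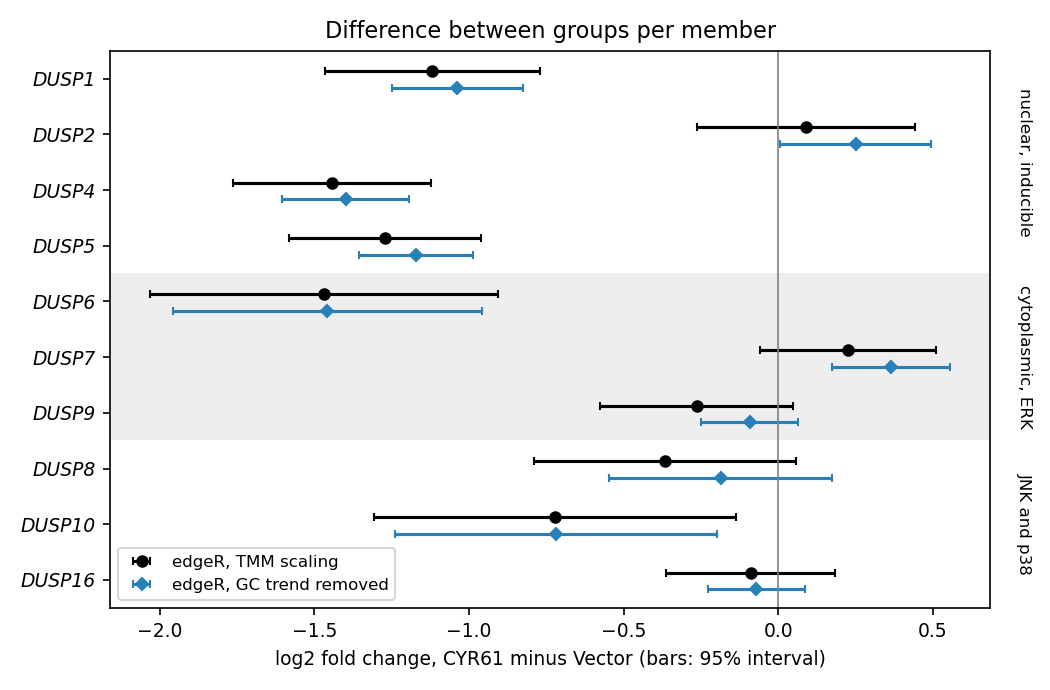
Log2 fold change of each member, CYR61 minus Vector, with its 95% interval, from the edgeR fit with TMM scaling (black circles) and from the same fit after removal of the GC trend of each library (blue diamonds). The intervals of DUSP1, DUSP4, DUSP5 and DUSP6 lie wholly below -0.7 in both fits, and those of DUSP9, DUSP8 and DUSP16 include 0 in both.

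Counting only whether libraries overlap, both CYR61 libraries were below both Vector libraries for 7 members, against 27.7% of all genes tested. They were above for DUSP7 and, by less than the digits given, DUSP2, against 23.9% of all genes tested. Such separation was common in these libraries.

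The GC content of the members' transcripts ran from 45.6% in DUSP10 to 65.6% in DUSP9. Those that fell lay between 46.7% and 55.9%. With the GC trend taken out of each library, the same 4 members were called lower, with log2 fold changes of -1.04 for DUSP1, -1.40 for DUSP4, -1.17 for DUSP5 and -1.46 for DUSP6. Beyond them, DUSP10 was called lower (-0.72, edgeR adjusted p = 0.0398) and DUSP7 higher (0.36, edgeR adjusted p = 0.00925). In that fit 12.4% of all genes were called lower and 18.4% higher, and the share of lower genes among those called was 40.3%, against 71.4% without the adjustment. The members richest in GC moved most: DUSP9 went to -0.09 and DUSP8 to -0.19, and neither was called. GC-adjusted values of DUSP7 were 61.6 and 52.8 CPM in the CYR61 libraries, against 44.5 and 44.5 CPM in the Vector libraries. The calls of DUSP10 and DUSP7 thus depended on the treatment of GC content, and those of DUSP1, DUSP4, DUSP5 and DUSP6 did not. DUSP10 was also called with no filter on low counts (edgeR adjusted p = 0.0484), where 6.4% of 16069 genes were called lower. Leaving out each of the 4 libraries in turn neither ended nor added a call of a member, though the log2 fold change of DUSP10 ran from -0.91 without Vector 1 to -0.48 without Vector 2.

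Summed over a class, the 4 nuclear members came to 105 and 129 CPM in the CYR61 libraries, against 256 and 239 CPM in the Vector libraries, a ratio of 0.473. The 3 cytoplasmic members summed to 111 and 118 CPM in CYR61, against 131 and 113 CPM in Vector libraries, with overlap. The 3 that prefer JNK and p38 summed to 78.5 and 76.6 CPM in CYR61, against 81.5 and 90.1 CPM in Vector libraries. The gap between groups in summed CPM was thus widest in the nuclear class; in the cytoplasmic sum DUSP6 weighs little because of its low level. All 10 together came to 295 and 324 CPM in CYR61, against 469 and 442 CPM in Vector libraries.

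To compare levels between members, CPM was divided by the length of the GENCODE transcript. In the Vector libraries DUSP1 came first at 60.2 ± 5.26 CPM per kb, followed by DUSP9 at 28.8 ± 3.77 and DUSP5 at 19.4 ± 1.07 CPM per kb (SD, n = 2 each). DUSP7 and DUSP16 followed with overlapping values of 14.0 ± 1.02 and 13.7 ± 1.07 CPM per kb, then DUSP4 at 10.7 ± 0.15 and DUSP2 at 10.4 ± 0.0243 CPM per kb. DUSP8 and DUSP10, at 1.97 ± 0.144 and 1.86 ± 0.386 CPM per kb, overlapped, and DUSP6 came last at 1.22 ± 0.0363 CPM per kb.

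In the CYR61 libraries DUSP1 and DUSP9 kept places 1 and 2, and the order changed in the middle. DUSP1 at 27.8 ± 5.93 CPM per kb overlapped DUSP9 at 24.0 ± 2.40 CPM per kb, whereas in Vector libraries they were apart. DUSP5 took place 6 at 8.03 ± 0.29 CPM per kb, against place 3 in Vector libraries, behind DUSP7 (16.3 ± 0.376), DUSP16 (12.9 ± 0.261) and DUSP2 (11.1 ± 0.953 CPM per kb). DUSP4 was at 3.92 ± 0.5, DUSP8 at 1.52 ± 0.12, DUSP10 at 1.14 ± 0.21 and DUSP6 at 0.443 ± 0.0582 CPM per kb. DUSP1, DUSP4, DUSP5 and DUSP6, grouped here because they were called, made up 35.2% and 39.5% of the summed CPM per kb of the family in CYR61 libraries, against 56.7% and 56.1% in Vector libraries. With the length of all exons merged instead, DUSP7 took place 5 in CYR61 and place 6 in Vector libraries, while places 1, 2 and 8 to 10 were the same.

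**Figure D3:**
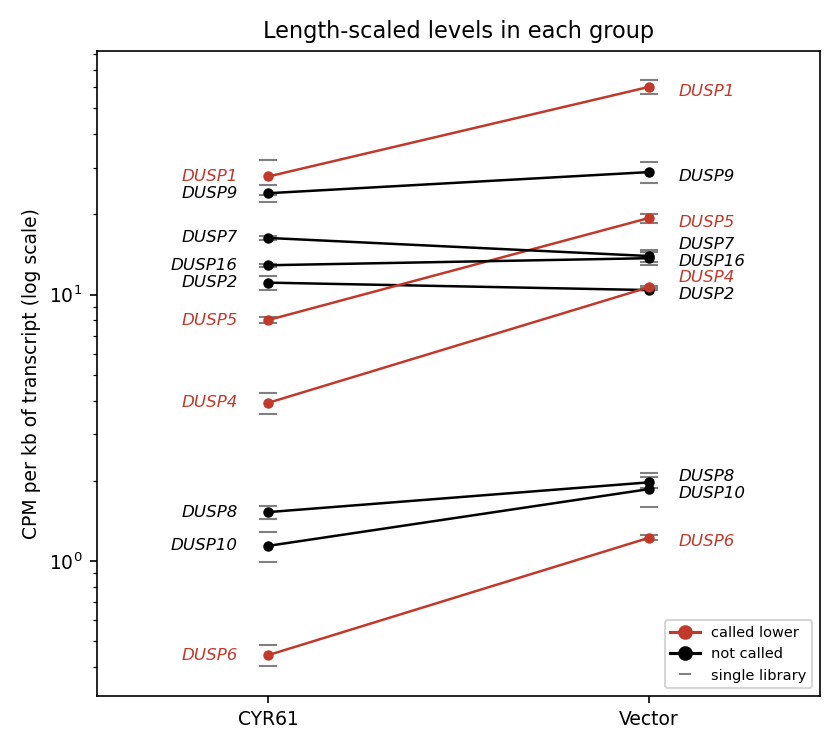
Mean CPM per kb of transcript (log scale) of each member in CYR61 (left) and Vector (right) libraries, with short grey marks for the single libraries; red lines are members called lower. DUSP5 crosses DUSP7, DUSP16 and DUSP2 between the groups, and DUSP4 drops away from DUSP2.

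By the root mean square difference of centred log2 CPM over the 4 libraries, the genes with the profile closest to DUSP4 among 10370 were ADGRA2 (0.0372), SNAI2 (0.05) and PHGDH (0.0548), with log2 fold changes of -1.38, -1.35 and -1.40. Closest to DUSP5 were COL15A1 (0.0205), SH3BP2 (0.0405) and IL2RB (0.0485), with log2 fold changes of -1.24, -1.32 and -1.31. With 4 libraries such likeness reflects mostly the size of the difference between groups.

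Of 23 genes of the ERK cascade, which holds kinases that the phosphatases act on, 1 fell and 0 rose (2 and 0 at an unadjusted p under 0.05), a share near the 4.56% lower and 1.83% higher of all genes. The median was -0.08 on the log2 scale. With the GC trend removed, 3 were called lower and 3 higher, against 12.4% lower and 18.4% higher of all genes. The ERK gene MAPK3 (-0.23) and the MEK genes MAP2K1 (-0.11) and MAP2K2 (-0.16) were not called. The member that fell was KSR1, a scaffold of the cascade, at 11.4 and 14.8 CPM in CYR61 libraries, against 22.9 and 24.0 CPM in Vector libraries (log2 fold change -0.84, edgeR adjusted p = 0.0204). KSR1 is uncertain, since another gene model shares 432 exon bases on its strand, and it was not called without CYR61 1 (edgeR adjusted p = 0.0711). Of 21 tested genes of the JNK and p38 cascade, 0 were called by edgeR, DESeq2 or limma-voom and 3 were lower at an unadjusted p under 0.05; MAPK13, which encodes p38 delta, had the smallest p (log2 fold change -0.80, edgeR adjusted p = 0.0669). MAPK13 was called lower with no filter (edgeR adjusted p = 0.00746), without CYR61 2 (0.00722) and after removal of the GC trend (0.0187, and 0.015 with the block). The list had 3 genes called lower with the GC trend removed and 2 with no filter, against 12.4% and 6.4% of all genes. The JNK genes MAPK8 (-0.20) and MAPK9 (-0.09) and the p38 alpha gene MAPK14 (-0.23) were not called.

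Among 17 tested kinases and transcription factors downstream of the MAP kinases, 3 fell and 0 rose (5 and 1 at an unadjusted p under 0.05), with a median of -0.05. Over all genes tested, 4.56% were called lower and 1.83% higher. With the GC trend removed, 4 were called lower and 6 higher, against 12.4% lower and 18.4% higher of all genes. With the block as well, the list had 4 lower and 5 higher, so the one-sided count depended on the treatment of GC content. JUN, a JNK substrate and AP-1 subunit, was at 22.7 and 22.6 CPM in CYR61 libraries, against 44.6 and 42.0 CPM in Vector libraries (log2 fold change -0.94, edgeR adjusted p = 0.0036). ETS2, a factor phosphorylated by ERK, had a log2 fold change of -0.75 (edgeR adjusted p = 0.00498). RPS6KA5, the kinase MSK1, was at the threshold (-0.72, edgeR adjusted p = 0.0484) and was not called under 6 of 15 alternatives, among them DESeq2 (adjusted p = 0.0551) and Vector 2 left out (edgeR adjusted p = 0.236).

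Tested phosphatases outside the family were not called in the edgeR fit on all 4 libraries with TMM scaling. The shares over all genes tested were 4.56% lower and 1.83% higher. Lists of 13 and 8 genes are too short to tell 0 calls from such shares. Of 13 tested genes of the atypical dual-specificity class, which generally lacks the MAP kinase binding domain, 0 were called by edgeR, DESeq2 or limma-voom. In this list 0 passed an unadjusted p of 0.05 and the median log2 fold change was 0.06. DUSP11 had the smallest p (log2 fold change 0.34, edgeR adjusted p = 0.305). Of 8 tested tyrosine and serine/threonine phosphatases that also act on MAP kinases, 0 were called by edgeR, DESeq2 or limma-voom and the median was 0.06. PPP2R1B, a scaffold subunit of PP2A, was the 1 gene higher at an unadjusted p under 0.05 (0.38, edgeR adjusted p = 0.162). PPP2R1B was called higher with the GC trend removed (0.39, edgeR adjusted p = 0.00808), where 18.4% of all genes were called higher. Without CYR61 2 its log2 fold change was 0.54. The tyrosine phosphatase genes PTPN5 and PTPN7 had 0 counts in all 4 libraries.

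Transcripts often read as output of ERK fell for some genes. Of 7 tested genes of an ERK output list without the phosphatases, 4 fell and 0 rose (5 and 0 at an unadjusted p under 0.05), with a median of -0.72. For this list and the next, the shares over all genes tested were 4.56% called lower and 1.83% higher. PHLDA1, a pleckstrin homology domain gene, had a log2 fold change of -1.68 and ETV5, a PEA3 transcription factor, one of -1.60 (edgeR adjusted p = 0.000191 for each); ETV5 shares 164 exon bases with DGKG on its strand and is uncertain. The ERK inhibitor gene SPRY4 (-1.50, edgeR adjusted p = 0.0113) and the receptor gene EPHA2 (-0.64, edgeR adjusted p = 0.0166) also fell, and the cyclin gene CCND1 (0.09) and ETV4 (-0.16) were not called. The call of SPRY4 was lost without Vector 2 (edgeR adjusted p = 0.054), that of EPHA2 without CYR61 1 (0.0846), without Vector 1 (0.0728) and with the replicate number as a block (0.0785). Of 10 tested early response genes, 6 fell and 0 rose (9 and 0 at an unadjusted p under 0.05), with a median of -0.68. The fall was 1.64 for IER3, 1.44 for EGR1, 0.97 for JUNB and 0.84 for KLF10 on the log2 scale (edgeR adjusted p = 0.000365 to 0.00478), and MYC (-0.26) was not called. PHLDA1, IER3, JUNB and RPS6KA5 share exon bases with a gene on the opposite strand, so that their reads may include those of that gene. The same holds for KSR1, MAP2K1, CCND1, ETV4, PPP2R1B and ELAVL1, and for the marker genes CDH1, KRT8, VIM and CD68. The spread of each list is shown in the plot of pathway genes.

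**Figure D4:**
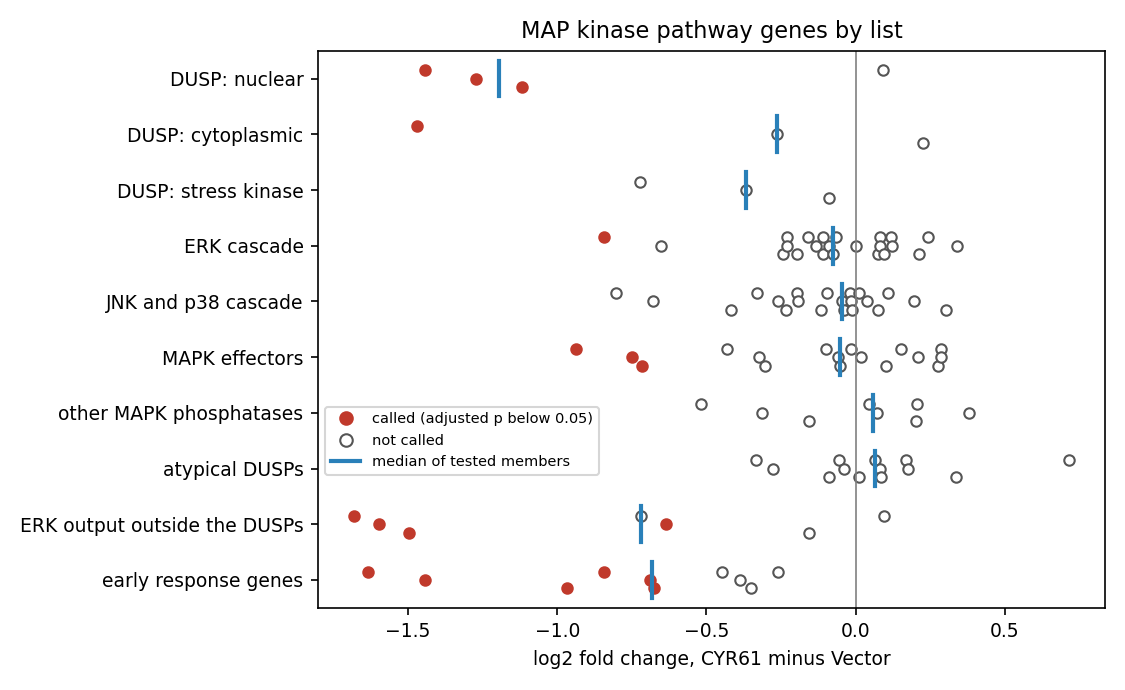
Log2 fold change, CYR61 minus Vector, of every tested gene of the 3 phosphatase classes and 7 pathway lists; red points were called by edgeR, open points were not, and blue bars are list medians. The kinase lists centre near 0, with medians of -0.08 and -0.05, and the ERK output and early response lists centre at -0.72 and -0.68.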

How the data were processed

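Each of the 4 libraries had a deposited table of estimated counts per gene. Between 11.2% and 12% of values were not whole numbers. The submitters' processing notes name hg38 and, with no roles, Cuffdiff 1.3.0, Cufflinks 2.2.1 and TopHat2 2.1.1; which program counted, with what annotation and strand setting, is not given in the sources used.

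Estimated counts were rounded, filtered with filterByExpr, scaled by TMM and fitted on group with edgeR 4.0.16 (glmQLFit, glmQLFTest; R 4.3.3), with Benjamini-Hochberg adjustment over 12698 genes. CPM used TMM-scaled library sizes. SE is the absolute log2 fold change over the square root of F, and intervals use t with the fit's total degrees of freedom. Symbols matched 20228 of 20286 identifiers; lengths, GC content and 3′ UTRs came from 1 transcript per gene of GENCODE 29 (APPRIS principal, then longest).

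The members and lists were chosen with earlier results of these data known, so list counts are descriptions. Named genes were all members, CYR61 and, per list, up to 4 called genes of smallest p in each direction or else the 1 gene of smallest p; others were chosen after their values were seen. DUSP13A and DUSP13B had no match. The scripts were tested on simulated data.

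Alternatives were DESeq2 1.42.0, limma 3.58.1 (voom), RLE, upper quartile or no scaling, CYR61 left out of library sizes, low counts left unfiltered, a stricter filter of 5 CPM in 2 libraries, a replicate block, each library left out, and removal of each library's GC trend (natural spline, 5 degrees of freedom) with and without the block.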

Additional observations from a re-analysis of the deposited data

How the results depend on the processing

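Over 15 alternatives, DUSP1, DUSP4, DUSP5 and DUSP6 were called lower in each, with log2 fold changes of -1.35 to -0.90, -1.58 to -1.30, -1.32 to -1.17 and -1.60 to -1.32. Of 149 member values, 144 kept their direction and side of the threshold, and the other 5 were the calls of DUSP10 and DUSP7 given above. DUSP10 could not be tested with 5 CPM in 2 libraries. With the GC trend removed, 1 member was called higher, also with the block.

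Over all genes, 232 were called higher and 579 lower. DESeq2 called 356 higher. No filter gave 648 higher and 1029 lower, removal of the GC trend 2336 and 1575, and that with the block 1856 and 1275. With 1 library left out, 104 to 538 were higher and 377 to 793 lower; the extremes were without Vector 1 (104 and 377) and without CYR61 2 (538 higher). The replicate number as a block gave 53 higher and 338 lower and changed no member's call. Deviations of same-numbered libraries correlated at -0.711, so crossed pairs were added after seeing the data: 2748 genes higher and 2876 lower, with 1 member higher and 7 lower. With 2 libraries per group, crossed pairs then correlate at 0.711 by construction. The labels give no such pairing, so these counts are no evidence about the members. The cause of these shifts was not tested.

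Depth limits DUSP6 and DUSP10 most, at 34 to 126 counts per library, where the 95% intervals span over 1 on the log2 scale.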

Other observations

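Transcripts of proteins that bind AU-rich elements were measured as a further list of 9 genes. Of these, 1 fell and 1 rose, against 4.56% lower and 1.83% higher of all genes tested. With the GC trend removed, 3 were called lower and 2 higher, against 12.4% and 18.4% of all genes. ZFP36L1, a decay factor, was at 36.1 and 39.9 CPM in CYR61 libraries, against 66.4 and 66.5 CPM in Vector libraries (log2 fold change -0.81, edgeR adjusted p = 0.00539). KHSRP, which also promotes decay, was at 488 and 491 CPM in CYR61 libraries, against 353 and 338 CPM in Vector libraries (log2 fold change 0.50, edgeR adjusted p = 0.0216). The call of KHSRP was lost with the replicate block (edgeR adjusted p = 0.237) and without CYR61 1 (0.0529), Vector 1 (0.0845) or Vector 2 (0.154). ELAVL1, which stabilises such mRNAs, had a log2 fold change of 0.31 and was not called (edgeR adjusted p = 0.129).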
